A study of Mus musculus with 6 samples.

Results

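The G2/M melanoma cells examined here were the 25% of retained cells of each tumor with the highest score of 10 mitotic genes, and they numbered 128 of 507 retained and 602 sequenced cells. The score was the mean of log2(TPM + 1) over Mki67, Top2a, Cdk1, Ccnb1, Ccnb2, Birc5, Ube2c, Cdc20, Tpx2, and Aurka, where TPM is the share of a transcript among all transcripts of a cell, with the total set equal between cells. These 128 cells are called high-scoring cells. The 255 cells in the bottom 50% of the same tumors are called low-scoring cells, and the 124 cells between were left out of comparisons unless named. The cells were chosen by their levels of these 10 genes in the same data, so those levels are given as a description without a test.

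The data came from single-cell RNA sequencing of subcutaneous melanomas in C57BL/6 mice, each started with 50000 injected cells and harvested on day 15. B16-F10 (B16) is a pigmented mouse melanoma cell line, and R499 is a line derived from a B16 tumor that relapsed after radiation with anti-CTLA4. The 3 conditions were B16 without treatment (B16), B16 in mice that received anti-PD1 at 200 μg each time, first on day 5, then on day 8, and last on day 11 (B16PD1), and R499 without treatment (R499), with 2 tumors each. CD45-negative cells were sorted, so most immune cells had been removed, and full-length libraries were made with Smart-seq on the ICELL8 platform. Both lines share the B16 origin and were grown under the skin of hosts with an intact immune system. No condition was a sample of normal melanocytes.

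G2 and M are the last phases of the cell cycle, in which a cell with duplicated DNA prepares for division and then divides. Cyclin B (Ccnb1, Ccnb2) activates the kinase Cdk1, the spindle attaches to the kinetochores of condensed chromosomes, and the anaphase-promoting complex with Cdc20 and Ube2c then marks cyclin B for destruction. Many of the genes involved are transcribed together late in the cycle, through CCAAT boxes bound by NF-Y and a nearby element called the CHR, which is read by MuvB complexes.

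Promoter sequences are shown first because they are the DNA element that the score genes are known to share and the rule did not use it. Each line is the 130 bases before the annotated start of transcription, 5′ to 3′ on the strand of the gene, from RefSeq on the assembly GRCm38.p6. Capitals mark the CCAAT box (CCAAT, or ATTGG when read from the other strand) and the CHR letters searched (TTTGAA or TTTAAA, on both strands, so that TTCAAA is also a match). The score genes Cdk1, Ccnb1, Ube2c, and Cdc20 are followed by Cenpa, Plk1, and Hmgb2, which the score did not use. These 7 were picked because they hold both motifs, and the last 3 lines, the score gene Birc5, the checkpoint gene Mad2l1, and the S phase gene Tyms, were picked because they hold neither in these 130 bases. Both motifs stood in the 130 bases of 5 of 9 promoters of score genes and of 4 of 13 promoters of the 15 genes with the largest higher differences, and neither stood in 1 and 3 of them.
Cdk1 (chr10:69352913-69353042, minus strand): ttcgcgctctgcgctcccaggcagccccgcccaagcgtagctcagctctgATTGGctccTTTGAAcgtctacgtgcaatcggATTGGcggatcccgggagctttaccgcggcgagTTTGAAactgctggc
Ccnb1 (chr13:100786487-100786616, minus strand): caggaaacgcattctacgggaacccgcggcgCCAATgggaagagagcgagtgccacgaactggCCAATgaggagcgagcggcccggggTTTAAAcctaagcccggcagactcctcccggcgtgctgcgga
Ube2c (chr2:164769799-164769928, plus strand): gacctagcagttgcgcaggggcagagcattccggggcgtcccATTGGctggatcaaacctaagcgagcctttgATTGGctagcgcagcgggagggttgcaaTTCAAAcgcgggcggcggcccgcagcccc
Cdc20 (chr4:118437344-118437473, minus strand): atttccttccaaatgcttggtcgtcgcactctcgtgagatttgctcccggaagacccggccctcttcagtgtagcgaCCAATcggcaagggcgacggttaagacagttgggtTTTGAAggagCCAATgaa
Cenpa (chr5:30666756-30666885, plus strand): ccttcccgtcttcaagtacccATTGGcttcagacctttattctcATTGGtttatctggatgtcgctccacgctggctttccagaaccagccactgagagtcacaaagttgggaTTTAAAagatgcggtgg
Plk1 (chr7:122159305-122159434, plus strand): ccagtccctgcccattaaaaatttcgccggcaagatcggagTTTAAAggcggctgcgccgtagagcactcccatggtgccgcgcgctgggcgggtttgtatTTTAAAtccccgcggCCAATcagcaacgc
Hmgb2 (chr8:57511713-57511842, plus strand): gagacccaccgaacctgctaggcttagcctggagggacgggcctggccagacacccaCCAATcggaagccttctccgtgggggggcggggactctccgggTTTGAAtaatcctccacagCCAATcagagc
Birc5 (chr11:117849107-117849236, plus strand): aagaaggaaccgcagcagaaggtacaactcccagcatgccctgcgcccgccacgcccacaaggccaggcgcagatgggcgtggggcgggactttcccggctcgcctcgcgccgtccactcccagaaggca
Mad2l1 (chr6:66535091-66535220, plus strand): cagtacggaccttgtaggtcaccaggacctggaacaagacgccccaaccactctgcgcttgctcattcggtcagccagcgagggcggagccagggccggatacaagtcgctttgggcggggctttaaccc
Tyms (chr5:30073626-30073755, minus strand): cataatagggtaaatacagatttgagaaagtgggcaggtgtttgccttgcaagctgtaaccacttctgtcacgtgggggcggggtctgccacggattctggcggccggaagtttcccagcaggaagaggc

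Over the window of 300 bases around the start (250 before and 50 after), 9 of the 10 score genes had a RefSeq promoter, and 8 of these 9 held a CCAAT box and all 9 held CHR letters. Among 32851 mouse promoters, 37.4% held a CCAAT box, 27.6% held CHR letters, and 10.7% held both. The promoters of the genes tested below held both in 7.55% of cases. A match of a few letters is a description of the sequence and not a site of binding.

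The score differed widely within each tumor and the classes were cuts along a range rather than separate groups. The mean score of the high-scoring cells of a tumor was between 5.30 and 6.31 on the log2(TPM + 1) scale, and that of the low-scoring cells was between 1.42 and 2.43. In B16_007, the lowest score of a high-scoring cell was 4.04 and the highest score below it was 4.01. The same limits were 5.18 and 5.13 in B16PD1_000, which had the highest limit. In all, 30 of the 507 cells lay within 0.25 of the limit of their tumor. The cut took the same share of each tumor by construction, so the number of members says nothing on how many cells divide in a condition. With a common limit at the 75th percentile of all retained cells (4.56), the share of cells above it was 16.5% (95% Wilson interval 10.3 to 25.4) in B16_007, 24.4% (16.6 to 34.5) in B16_008, 34.9% (25.7 to 45.4) in B16PD1_000, 21.6% (14.3 to 31.3) in B16PD1_002, 23.5% (15.6 to 33.8) in R499_015, and 30.7% (21.4 to 41.8) in R499_016. The intervals cover counting error only. The ranges of the 3 conditions overlapped, and no test between them was made.

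**Figure D1:**
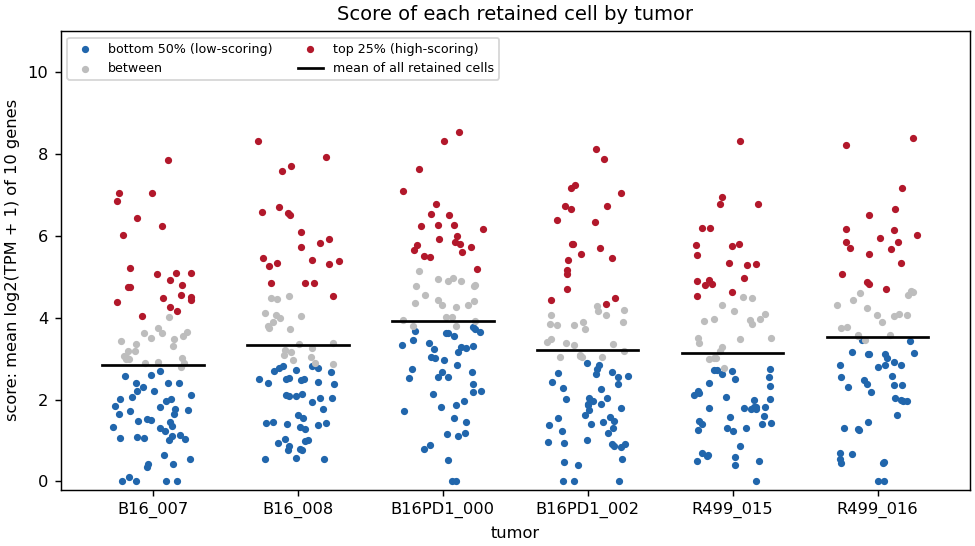
Score of each of the 507 retained cells (mean log2(TPM + 1) of 10 genes, vertical axis) in the 6 tumors (horizontal axis), with high-scoring cells in red, low-scoring cells in blue, cells between in gray, and the mean of all retained cells as a black line. Scores run without a gap across each limit, which ranged from 4.04 in B16_007 to 5.18 in B16PD1_000.

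The score genes were not equally widespread among the high-scoring cells. Birc5, the survivin subunit of the chromosomal passenger complex, was detected (TPM above 0) in 127 of 128 high-scoring cells and in 91 of 255 low-scoring cells. Its mean log2(TPM + 1) in a tumor was between 7.71 and 8.44 (median 7.87) in high-scoring cells and between 1.22 and 3.45 (median 2.55) in low-scoring cells, without overlap. Cdc20, the activator of the anaphase-promoting complex, was detected in 86 high-scoring and 26 low-scoring cells, which left 10.2% of low-scoring cells with the gene. Its means lay between 3.28 and 5.48 in high-scoring cells and between 0.30 and 1.03 in low-scoring cells. Mki67, the antigen Ki-67 of the surface of mitotic chromosomes, was the lowest of the 10 in high-scoring cells, with tumor means between 1.74 and 3.48, and was detected in 90 of 128. Cdk1 was the gene most often detected outside the class, in 122 of 255 low-scoring cells (47.8%), and its means were between 7.22 and 8.53 in high-scoring cells and between 2.88 and 3.91 in low-scoring cells.

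The remaining score genes lay between these. Top2a, the topoisomerase that untangles sister chromatids, was detected in 116 high-scoring and 108 low-scoring cells, Ccnb1 in 122 and 103, Ccnb2 in 124 and 107, and Ube2c in 123 and 100. Tpx2, a spindle factor that activates the kinase Aurora A, was detected in 103 and 52, and Aurka, which encodes Aurora A, in 94 and 54. All 10 genes were detected in 37 of the 128 high-scoring cells, the median was 9, and the fewest was 6. Low-scoring cells had a median of 3 and at most 8, and 12 of them had none. A low score therefore does not mean that no mitotic gene was present.

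The high-scoring cells were of the melanocyte lineage by their markers, which do not tell melanoma cells from melanocytes of the host. Tyrp1 and Dct, enzymes of melanin synthesis, and Pmel, the fibril protein of the melanosome, were detected in all 128 high-scoring and all 255 low-scoring cells, and Mitf, the lineage transcription factor, was detected in 124 and 228. Of 18 immune markers, 6 were at 0 in all high-scoring cells, and Ptprc, which encodes CD45, was detected in 1 of 128 and in 0 of 255. The summed immune TPM per cell averaged between 7.80 and 1147 in the high-scoring cells of a tumor and between 2.26 and 49.9 in low-scoring cells. The high end came from 1 high-scoring cell of B16_007, with 10 immune markers at 2.60% of its TPM, and 1 of B16PD1_002, with 5 markers at 1.87%. In these, Tyrobp and Lyz2, genes of myeloid cells, reached log2(TPM + 1) values between 12.6 and 13.3, beside Dct values of 10.4 and 11.0. Without cells that had 4 or more immune markers, the high-scoring range was 7.80 to 43.1. Doublets were not called. Col1a1 of fibroblasts and Krt5 of keratinocytes were detected in 0 high-scoring cells, and Pecam1 of endothelial cells in 2, with summed TPM of at most 3.39, 0, and 1.49 in the high-scoring cells of a tumor for the 8 fibroblast, 6 keratinocyte, and 6 endothelial markers. The defining markers of these 3 types were at 0 in all low-scoring cells, where the sums were at most 1.25, 0.64, and 2.89.

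High-scoring cells also had more genes detected, with a median of 4153.5 against 3143 in low-scoring cells. Reads per cell are unknown, because TPM holds no counts, so richer cells and better sampled cells cannot be told apart. The comparison below was therefore made within each tumor with the number of genes detected as a covariate. It gave 1 difference per gene and tumor, and limma tested the 6 differences, with the tumor as the replicate. Differences are on the log2(TPM + 1) scale, which understates the change of low genes.

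Of 11254 genes tested, 350 (3.11%) passed an adjusted p under 0.05 (limma, Benjamini-Hochberg over all genes), 287 (2.55%) of them higher and 63 (0.56%) lower in high-scoring cells. A positive difference in all 6 tumors was seen for 531 genes (4.72%) and a negative one for 585 (5.2%), which is the background for statements on 6 of 6 tumors. The median difference of all genes was −0.01. Without the covariate, the split was 1179 higher and 11 lower and the median of all genes was 0.17, so the share of calls that were higher was 82.0% with the covariate and 99.1% without. Without tumor B16PD1_002, 178 genes were higher, and the number lower was between 17 and 40 when each tumor was left out in turn. The 350 calls had the same direction in each of these fits.

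Cenpa, the histone H3 variant that marks the centromere, had the largest difference among genes the score did not use. Its mean in high-scoring cells was between 5.39 and 6.96 (median 5.58) over the 6 tumors, and between 1.01 and 2.92 (median 1.80) in low-scoring cells. The ranges did not overlap, and the difference was 3.73 ± 0.34 (SE, n = 6 tumors; adjusted p = 2.6e-06). Cks2, a small subunit of Cdk1 complexes, was between 5.69 and 7.66 (median 6.61) in high-scoring cells and between 2.05 and 2.99 (median 2.5) in low-scoring cells, a difference of 3.66 ± 0.34 (adjusted p = 3.3e-06). Ccna2, the cyclin A of S phase and G2, was between 4.90 and 6.74 against 1.03 and 2.59, a difference of 3.59 ± 0.37 (adjusted p = 7.9e-06). Spc25, a subunit of the NDC80 complex that holds microtubules, was between 4.05 and 6.27 against 1.01 and 1.91, a difference of 3.54 ± 0.31 (adjusted p = 2.6e-06). The ranges of high-scoring and low-scoring cells were apart for each of these 4 genes.

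The other genes among the 15 largest higher differences fell into mitotic and replication genes. Cdca3, a protein that helps degrade the kinase Wee1, differed by 3.29 ± 0.29, Cenpm of the inner kinetochore by 3.19 ± 0.37, and Bub1, a kinase of the spindle checkpoint, by 2.98 ± 0.40. Mad2l1, the checkpoint protein that holds Cdc20 inactive, differed by 3.15 ± 0.33, with the smallest difference in R499_016 (1.43) and the other tumors between 3.12 and 3.80. Pbk, a kinase active in mitosis, differed by 3.33 ± 0.36, and Ckap2l, a spindle protein, by 2.95 ± 0.30. Hmgb2, a chromatin protein that bends DNA, was detected in 123 of 128 high-scoring cells and in 165 of 255 low-scoring cells, and differed by 2.91 ± 0.28. Tyms, which makes thymidylate, differed by 3.40 ± 0.38, Tk1, thymidine kinase, by 3.12 ± 0.35, Pclaf, a partner of PCNA, by 3.32 ± 0.29, and Asf1b, a histone chaperone, by 3.10 ± 0.36. Each had an adjusted p of 0.00012 or less (limma). Each was also higher in 6 of 6 tumors, which the choice of these genes required.

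**Figure D2:**
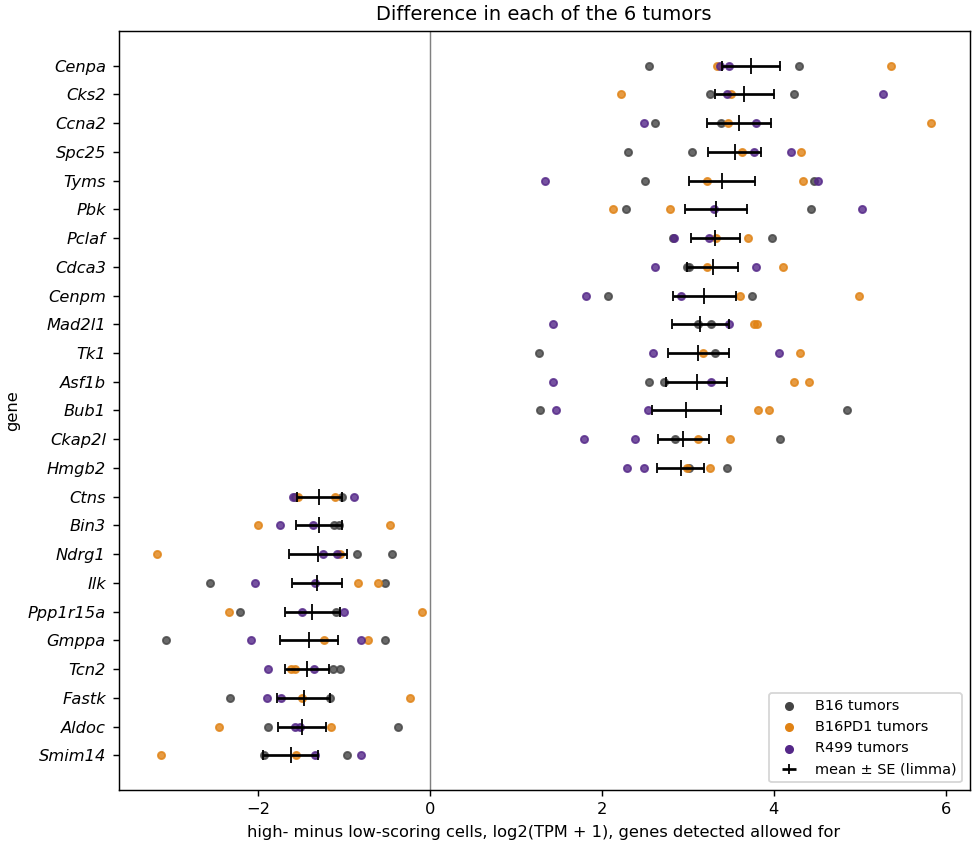
Difference between high-scoring and low-scoring cells (log2(TPM + 1), genes detected allowed for, horizontal axis) for the 15 largest higher and 10 largest lower called genes with 1 sign in all tumors (vertical axis); each point is 1 tumor, colored by condition, and black marks are the mean ± SE. Points of the upper 15 genes lie between 1.27 (Tk1) and 5.83 (Ccna2), and those of the lower 10 lie between −3.17 (Ndrg1) and −0.09 (Ppp1r15a).

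Among regulators of mitotic entry, 12 of 21 rose, none fell, and 9 did not pass, with a median difference of 0.81 over the list. Plk1, the polo-like kinase that starts mitosis, was detected in 76 of 128 high-scoring and 37 of 255 low-scoring cells and rose by 2.46 ± 0.27 (adjusted p = 1.4e-05). Cks1b rose by 2.67 ± 0.28, and Cdc25c, a phosphatase that activates Cdk1, by 1.76 ± 0.26. The transcription factor Foxm1, which drives late cell cycle genes, rose by 0.81 ± 0.18 (adjusted p = 0.015) and was detected in 38 high-scoring and 23 low-scoring cells. Mybl2, another such factor, was detected in 13 and 9 cells, and its difference of 0.14 ± 0.10 did not pass (adjusted p = 0.59). The difference of Wee1, the kinase that restrains Cdk1, was −0.05 ± 0.11 (adjusted p = 0.89).

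The kinetochore and spindle checkpoint list, which forms the link between chromosome and spindle, had 32 of 39 genes higher and a median of 1.29. Spc24 rose by 2.58 ± 0.29, Ndc80 by 2.47 ± 0.33, and Bub1b by 1.82 ± 0.23, in 6 of 6 tumors each. Differences of the constitutive centromere protein Cenpc1 (0.15 ± 0.20) and of the checkpoint proteins Mad1l1 (0.23 ± 0.22) and Bub3 (0.61 ± 0.24) did not pass. Of the spindle motors and microtubule proteins, 26 of 31 rose, with a median of 1.45. Stmn1, which takes microtubules apart, was abundant in both classes, with means of 8.29 and 5.12, and rose by 2.78 ± 0.35. The tubulin Tubb4b, detected in 125 of 128 high-scoring cells, rose by 2.04 ± 0.25, and the motors Kif11 and Kif15, which push the spindle poles apart, rose by 1.93 ± 0.26 and 2.21 ± 0.37. Tuba1a, a tubulin of neural cells, gave 0.41 ± 0.15 and did not pass (adjusted p = 0.17).

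The chromosomal passenger and cytokinesis list had the highest median, 2.29, with 13 of 16 genes higher. Aurkb, the kinase of the passenger complex, rose by 2.87 ± 0.30, its partner Cdca8 by 2.91 ± 0.34, and Incenp, the scaffold of the same complex, by 0.73 ± 0.14. Kif23 and Racgap1, which build the midzone of the dividing cell, rose by 2.77 ± 0.29 and 2.68 ± 0.31. Rhoa, a GTPase of the contractile ring that all cells use, gave −0.14 ± 0.23 and did not pass.

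Of the condensin, cohesin, and chromatin list, 15 of 27 rose, with a median of 1.06. Of the condensin subunits, Smc4 rose by 2.14 ± 0.31, Smc2 by 2.04 ± 0.34, Ncapg2 by 1.73 ± 0.28, Ncapg by 1.72 ± 0.33, and Ncaph by 1.33 ± 0.34, and Ncapd2 (0.84 ± 0.26), Ncapd3 (0.28 ± 0.24), and Ncaph2 (0.60 ± 0.32) did not pass. The cohesin subunits Rad21 (1.06 ± 0.32, adjusted p = 0.081), Smc3 (0.72 ± 0.30), Smc1a (0.44 ± 0.29), Stag1 (0.26 ± 0.30), and Stag2 (−0.12 ± 0.29) did not pass either, and condensin was not tested against cohesin. Pttg1, the securin that keeps sister chromatids joined until anaphase, was detected in 71 of 128 high-scoring and 108 of 255 low-scoring cells. Its difference ranged from −2.14 to 1.82 among tumors, with a mean of −0.04 ± 0.39 (adjusted p = 0.98). Espl1, the separase that securin restrains, rose by 0.43 ± 0.11 (adjusted p = 0.032).

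The anaphase-promoting complex and its enzymes, which end mitosis, had 3 of 18 genes higher and a median of 0.31. Those 3 were Ube2s, the enzyme that extends ubiquitin chains (2.0 ± 0.36, adjusted p = 0.0023), Anapc15, a subunit (1.40 ± 0.37, adjusted p = 0.046), and Fbxo5, an inhibitor of the complex (1.32 ± 0.26, adjusted p = 0.005). Core subunits such as Anapc1 (−0.26 ± 0.29), Anapc2 (−0.21 ± 0.22), and Cdc23 (−0.04 ± 0.28) did not pass. Fzr1, an activator of the complex late in mitosis and in G1, gave 0.21 ± 0.17 and did not pass.

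**Figure D3:**
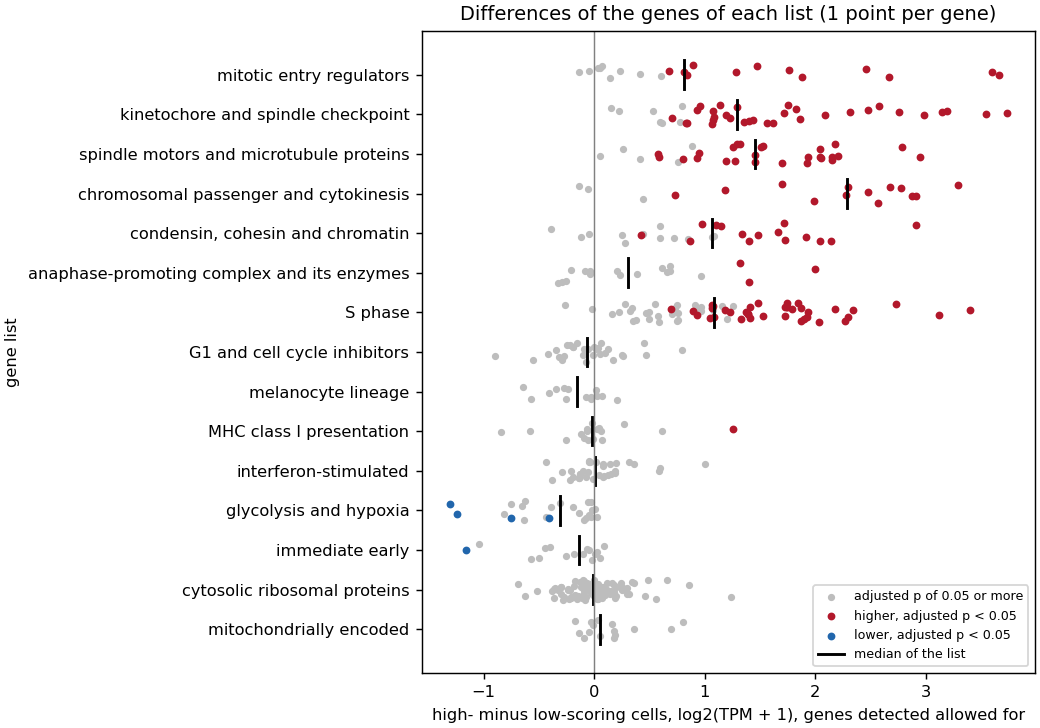
Difference between high-scoring and low-scoring cells (log2(TPM + 1), genes detected allowed for, horizontal axis) for the genes of 15 lists (vertical axis), 1 point per gene; red and blue points passed the test as higher or lower, gray points did not, and black lines are list medians. Medians were 2.29 for the chromosomal passenger and cytokinesis list, 1.08 for the S phase list, −0.06 for the G1 list, and −0.30 for the glycolysis and hypoxia list.

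S phase genes were also higher. Of 67 genes of DNA replication, 38 rose, none fell, and 29 did not pass, with a median of 1.08. Rrm2 and Rrm1, the subunits of ribonucleotide reductase, rose by 2.73 ± 0.27 and 2.27 ± 0.28, Pcna, the sliding clamp of DNA polymerase, by 1.74 ± 0.27, and Mcm5 of the replicative helicase by 1.87 ± 0.32. Members that act around the start of S phase did not all pass. Ccne2, a cyclin E, rose by 0.89 ± 0.20 and Mcm3 by 1.72 ± 0.31, while Ccne1 (0.28 ± 0.19), Chaf1a (0.23 ± 0.12), and Ung (−0.27 ± 0.12) did not pass. The mean over the 67 genes had a median over high-scoring cells between 2.80 and 4.0 in the 6 tumors, against 1.42 to 1.86 in low-scoring cells. Of the 128 high-scoring cells, 73 (57.0%) were also in the top 25% of their tumor by this S phase mean, as were 25 of 255 low-scoring cells (9.80%). The class is therefore not G2/M alone by these lists, and a cell late in S phase, a cell in G2 with remaining S phase transcripts, and more than 1 cell in a well cannot be told apart here.

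**Figure D4:**
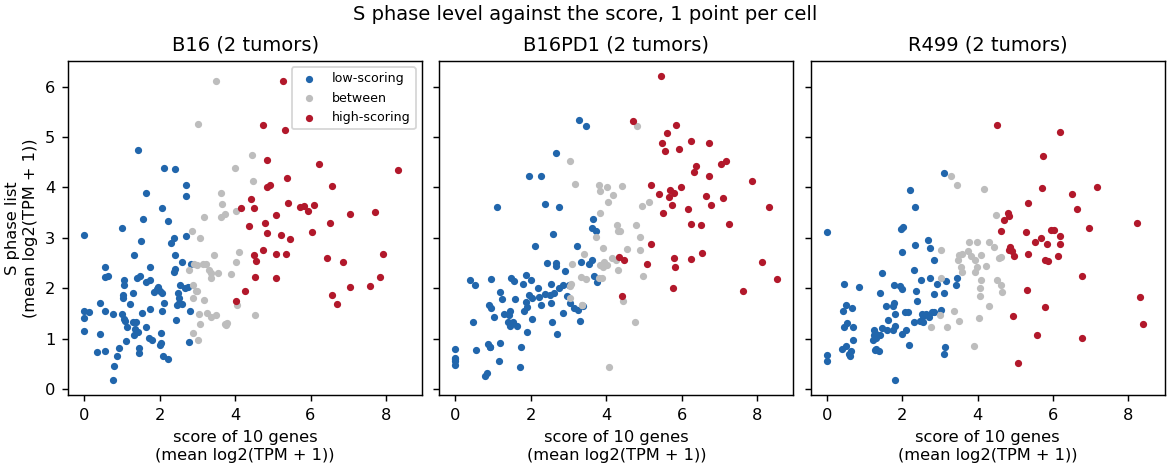
Mean log2(TPM + 1) of the 67 S phase genes (vertical axis) against the score (horizontal axis) for the retained cells of each condition, 1 point per cell, with high-scoring cells in red, low-scoring cells in blue, and cells between in gray. The S phase level of high-scoring cells spreads from the level of low-scoring cells to the highest values, and 73 of 128 were among the top 25% of their tumor.

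When the cells in the S phase top 25% were left out, a comparison added after the data were seen, 55 high-scoring and 230 low-scoring cells remained, and 59 genes were higher and 3 lower. The 350 calls of the full comparison had the same direction for 349. Cenpa differed by 4.30 ± 0.43, Cdca3 by 3.91 ± 0.37, Cks2 by 3.80 ± 0.46, Ccna2 by 3.71 ± 0.42, and Plk1 by 3.09 ± 0.34, all still called. Fewer cells entered this fit, and the cause of a fall in calls was not tested. Higher calls fell from 287 to 59 among all 11254 genes. In the lists they fell from 12 to 4 of 21 regulators of mitotic entry and from 32 to 13 of 39 kinetochore genes. They also fell from 26 to 10 of 31 spindle genes and from 13 to 6 of 16 passenger and cytokinesis genes. The medians of these lists were 0.53, 1.15, 1.24, and 1.96, against 0.81, 1.29, 1.45, and 2.29 with all cells. The S phase genes chose the cells left out, so nothing is read from them here.

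The promoters of the higher genes held the motifs shown above more often than those of the genes tested. Of the 287 higher genes, 223 had a RefSeq promoter, and of their 263 promoters 57.4% held a CCAAT box, 44.1% held CHR letters, and 29.7% held both, against 38.1%, 19.1%, and 7.55% for the genes tested. For the 4 lists of entry regulators, kinetochore, spindle, and passenger genes, the shares were 69.1%, 54.6%, and 43.3% of 97 promoters. The 58 promoters of S phase genes held a CCAAT box in 60.3% of cases but CHR letters in 22.4%, close to the share of the genes tested. The 68 promoters of the lower genes held them in 36.8% and 23.5%. These shares are descriptions, and genes called higher had been found in the same cells.

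Of genes that act in G1 or stop the cycle, none of 30 passed, and the median was −0.06. Ccnd2, a D-type cyclin, was lower in 6 of 6 tumors with genes detected allowed for. The difference of −0.90 ± 0.26 did not pass (limma, adjusted p = 0.076). Plain means of Ccnd2 were higher in high-scoring cells of B16PD1_000 (6.71 against 6.62) and R499_015 (5.74 against 5.44). Differences were −0.34 ± 0.35 for Ccnd1, −0.16 ± 0.32 for the inhibitor Cdkn1a, and 0.03 ± 0.30 for the inhibitor Cdkn1b. The melanocyte lineage list had none of 14 genes past the test and a median of −0.15. Mitf gave 0.20 ± 0.25, Pmel −0.03 ± 0.11, Dct 0.02 ± 0.10, and Tyrp1 −0.35 ± 0.11 (adjusted p = 0.093).

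Genes of MHC class I presentation make a tumor cell visible to T cells. Of 17 such genes, 1 rose, none fell, and the median was −0.02, and 3 had an unadjusted p under 0.05. The riser was Psmb10, an immunoproteasome subunit (1.25 ± 0.34, adjusted p = 0.047), detected in 68 of 128 high-scoring and 73 of 255 low-scoring cells. H2-K1, a class I heavy chain, gave −0.84 ± 0.32 (adjusted p = 0.20), and B2m, its light chain, gave −0.26 ± 0.15 (adjusted p = 0.44). None of 34 interferon-stimulated genes passed, with a median of 0.01. None of 98 cytosolic ribosomal protein genes and none of 15 mitochondrially encoded genes passed, with medians of −0.01 and 0.05. At an unadjusted p under 0.05 (limma), 4 of the 30 G1 genes, 2 of the 14 melanocyte genes, 3 of the 34 interferon-stimulated genes, 7 of the 98 ribosomal protein genes, and 1 of the 15 mitochondrially encoded genes stood, beside 1663 (14.8%) of all genes tested. Among the markers of other cell types that could be tested, none of 6 immune, 3 fibroblast, and 1 endothelial genes passed; no keratinocyte marker was in enough cells. At an unadjusted p under 0.05 these were 1, 0, and 0. Lyz2, with the largest difference of these, gave 0.33 ± 0.10 (adjusted p = 0.10).

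Glycolysis and hypoxia genes were the list with most lower calls. Of 23 genes, 4 fell and none rose, and the median was −0.30. Aldoa, an aldolase of glycolysis detected in all cells of both classes, fell by 0.41 on the log2 scale (SE 0.10, adjusted p = 0.022) and was lower in 6 of 6 tumors. Car9, a carbonic anhydrase induced by low oxygen, fell by 1.24 (SE 0.30, adjusted p = 0.025) and was lower in 5 of 6. Bnip3, a mitophagy receptor induced by low oxygen, fell by 0.75 (SE 0.20, adjusted p = 0.047). Ndrg1, another hypoxia-induced gene, fell by 1.31 (SE 0.34, adjusted p = 0.038). Other abundant members did not pass, with 0.01 ± 0.10 for Ldha, −0.14 ± 0.08 for Gapdh, and −0.07 ± 0.16 for Pkm. These calls were near the threshold and depended on the setting. No gene of the list was called lower without B16_008, without B16PD1_002, against the nearest low-scoring cell, for the top 10% of cells, with genes in at least 1 cell, without S-phase-high cells, or in limma without a trend. The median of the list was −0.05 with no covariate and between −0.43 and −0.17 in the other alternatives. Ndrg1 lost its call in 15 of 22 alternatives and Aldoa in 9, all with the same sign. In the immediate early list 1 of 16 genes fell, the transcription factor Klf6 (fell by 1.16, SE 0.31, adjusted p = 0.048), which lost its call in 17 of 22 alternatives.

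The 10 largest lower differences with 1 sign in all tumors were smaller than the higher ones and their ranges mostly overlapped. The sign is that of differences with genes detected allowed for. Plain means were higher in high-scoring cells of B16_008 for Smim14 (4.13 against 4.11), Aldoc (6.95 against 6.60), and Fastk (4.0 against 3.18). They were also higher for Ndrg1 in B16_007 and B16_008, Gmppa in B16PD1_002, and Ppp1r15a in B16PD1_000. Plain means were lower in every tumor for Tcn2, Ilk, Bin3, and Ctns. Smim14, a small membrane protein, had means between 2.70 and 4.84 (median 4.18) in high-scoring cells and between 4.11 and 5.44 (median 4.79) in low-scoring cells, and fell by 1.62 with genes detected allowed for (SE 0.32, adjusted p = 0.0052). Tcn2, a carrier of vitamin B12, had means between 4.73 and 5.87 in high-scoring cells and between 5.88 and 6.74 in low-scoring cells. These ranges all but met, with nearly equal means of 5.872 and 5.876 in B16_008. With genes detected allowed for, Tcn2 fell by 1.43 (SE 0.25, limma, adjusted p = 0.0018). Ctns, the cystine exporter of lysosomes, had means between 1.08 and 1.76 against 2.0 and 2.52, which did not overlap. It fell by 1.29 with genes detected allowed for (SE 0.26, limma, adjusted p = 0.0076). Aldoc, an aldolase isoform, fell by 1.49 (SE 0.28, adjusted p = 0.0036), with ranges of 4.79 to 6.95 and 5.88 to 7.09 that overlapped. The others were Fastk (−1.47 ± 0.31), Gmppa (−1.40 ± 0.34), Ppp1r15a (−1.37 ± 0.32), Ilk (−1.31 ± 0.29), Ndrg1, and Bin3 (−1.29 ± 0.27). Tcn2 kept its call in 20 of 22 alternatives, Aldoc in 19, Ctns in 18, and Smim14 in 17, while Gmppa lost its call in 12, Ilk in 11, and Ppp1r15a in 10. In units of TPM, which sum to the same total in every cell, a lower share and a rise of other transcripts cannot be told apart.

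The mitochondrial share of TPM averaged 3.57% in high-scoring and 3.22% in low-scoring cells. It was higher in high-scoring cells of 6 of 6 tumors, by 0.35 ± 0.32 percentage points (SD, n = 6; p = 0.031, two-sided exact sign-flip test, the smallest p that 6 tumors allow). With the number of genes detected as a covariate the difference was −0.05 percentage points (p = 0.81, same exact test), so the sign turned.

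High-scoring cells were then compared between conditions on their mean log2(TPM + 1) in each tumor, which asks whether dividing cells differ after anti-PD1 or in the resistant line. The pairs of conditions share tumors, and 2 tumors each limit the precision. The fit held all 11264 genes. The 10 score genes are among them, but they chose the cells, so their values here are a description. No gene passed an adjusted p under 0.05 by limma in any of the 3 contrasts. At an unadjusted p under 0.05 there were 527 genes (4.68%) for B16PD1 minus B16, 917 (8.14%) for R499 minus B16, and 851 (7.56%) for R499 minus B16PD1, of which 1, 0, and 1 were score genes. Of the 917, 750 were lower in R499, where the median of all genes was shifted by −0.15. The 10 score genes had a median of 0.57 for B16PD1 minus B16, 0.12 for R499 minus B16, and −0.31 for R499 minus B16PD1. The medians of all genes were −0.02, −0.15, and −0.11. The cut was made within each tumor, so the cells compared were not matched for score. Their mean scores were 5.30 and 6.03 in the B16 tumors, 6.31 and 6.01 in B16PD1, and 5.68 and 6.04 in R499.

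The genes with the smallest p between conditions included channel and signaling genes. Kcnj13, a potassium channel of pigment cells, reached 3.30 and 3.90 in the R499 tumors, against 0.53 and 0 for untreated B16 and 0.86 and 0.87 for treated B16, a difference of 3.34 ± 0.42 for R499 minus B16 (adjusted p = 0.58). Kalrn was at 0 in both B16 tumors and at 2.34 and 3.35 in R499, and among B16PD1 tumors it was at 0.13 and 0. It was detected in 23 of 128 high-scoring cells. Pdzk1ip1, a membrane protein, was at 0 in both B16 tumors and at 1.49 and 1.71 in R499, in 10 cells in all. These values separate R499 from both other conditions without passing the adjusted test. The genes were picked for a small p, so the separation follows largely from the choice. Kcnj13 and Kalrn were among 6 genes that passed for R499 minus B16 when genes in fewer than 10% of cells were left out. Among high-scoring cells both were high only in R499, so they could meet this filter largely through R499 cells. Their pass therefore adds no separate support.

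Kifc1, a minus-end motor that focuses spindle poles, was the mitotic gene with the smallest p. High-scoring cells had means of 2.21 and 2.65 in the treated tumors, 0.77 and 0.98 in untreated B16, and 1.0 and 1.38 in R499, a difference of 1.56 ± 0.27 for B16PD1 minus B16 (adjusted p = 0.96). The difference between high-scoring and low-scoring cells was 0.74 and 0.49 in the B16 tumors and 2.12 and 2.47 in the B16PD1 tumors, and this change of the difference, 1.68 ± 0.37, did not pass either (adjusted p = 0.95). Kifc1 was detected in 38 of 128 high-scoring cells. Slc26a2, a sulfate transporter, was at 0 in both B16PD1 tumors and at 0.95 and 1.10 in B16, and Syne1, a nuclear envelope protein, was at 0 and 0.35 in B16PD1 tumors and at 1.48 and 1.5 in B16. Both were detected in few cells, 16 and 25.

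For R499 minus B16PD1, Rps27, a ribosomal protein that shares sequence with pseudogenes and a near copy and is uncertain for that reason, had means of 12.4 and 12.2 in B16PD1 and 11.0 and 10.8 in R499. Its difference was −1.41 ± 0.18 (adjusted p = 0.64), and Xpo6, an exporter of actin, was at 1.66 and 1.69 in B16PD1 and at 0 in both R499 tumors. In the ribosomal list, the median was −0.41 for R499 minus B16 and −0.34 for R499 minus B16PD1, with 13 and 20 of 98 genes at an unadjusted p under 0.05 and 0 past adjustment. The S phase list had a median of −0.79 for R499 minus B16PD1, with 17 of 67 genes at an unadjusted p under 0.05 and 0 past adjustment. The kinetochore list had −0.77, with 7 of 39. Of all 11264 genes, 8.14% for R499 minus B16 and 7.56% for R499 minus B16PD1 stood at that level. The medians of all genes were −0.15 and −0.11. These contrasts allowed neither for genes detected nor for the score of the cells. The 17 MHC class I genes had 0, 1, and 0 genes at that level in the order of the contrasts above, and the 34 interferon-stimulated genes had 1, 0, and 2.

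**Figure D5:**
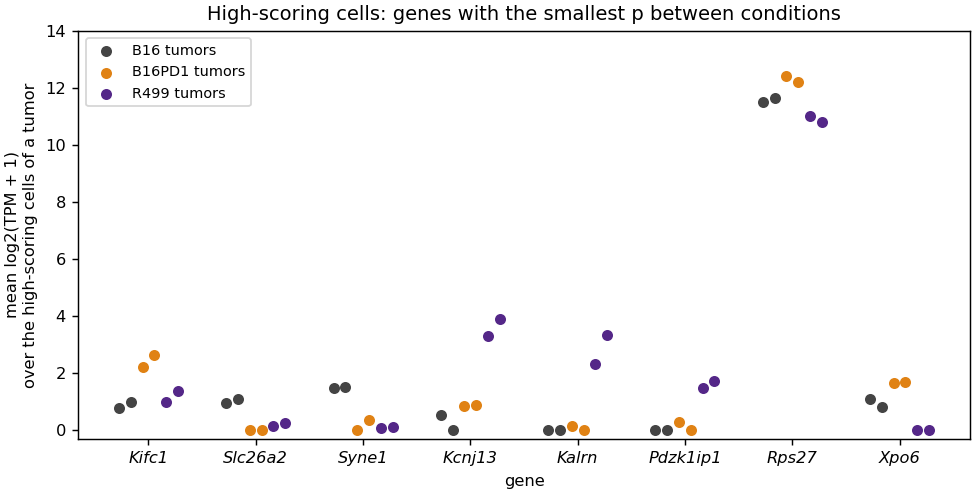
Mean log2(TPM + 1) over the high-scoring cells of each tumor (vertical axis) for the 8 genes with the smallest p in the contrasts between conditions (horizontal axis), 1 point per tumor, with B16 in gray, B16PD1 in orange, and R499 in purple. Kcnj13 and Kalrn reach 3.90 and 3.35 in R499 tumors and stay at 0.87 and 0.13 or less in the others, and no gene passed the adjusted test.

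Whether the difference between high-scoring and low-scoring cells itself changed with condition was tested on the same 6 differences per gene. No gene passed (limma, adjusted p under 0.05) in any contrast, and 526 (4.67%), 589 (5.23%), and 583 (5.18%) of 11254 had an unadjusted p under 0.05. Usmg5, a subunit of the ATP synthase, had differences of 1.83 and 2.53 in untreated B16, against 0.30 and −2.31 with treatment and −1.06 and 0.17 in R499. Rps28, a ribosomal protein, had differences of 0.07 and 0.84 in B16 and −3.15 and −1.16 in R499, and Rpl18, another, had −0.03 and 0.57 in B16 and −1.55 and −1.26 in R499. Fam83d, which brings a kinase to the spindle, had 1.28 and 0.83 in B16PD1 and −0.05 and −0.03 in R499. The tumors of the 2 conditions compared did not overlap for these genes. They were picked for a small p, so the separation follows largely from the choice. Adjusted p-values (limma) were between 0.70 and 0.95.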

How the data were processed

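TPM values from RSEM, made by the authors after 2-pass STAR alignment, were deposited for 25215 genes in 602 cells. The submitters' processing notes name mm10, and versions are not given in the sources used here. TPM holds no read counts, so depth is unknown, the authors' minimum of mapped reads was not applied, and a value of 0 cannot be told from a missed transcript. Cell names carry a tumor prefix that shows the condition but not which of the 2 labelled samples. Retained cells had over 1000 genes detected (TPM above 0) and under 10% mitochondrial TPM, and genes had to be detected in more than 5 of them. Doublets were not called.

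Within each tumor, log2(TPM + 1) was regressed on membership of the top 25% against the bottom 50% by score with genes detected as a covariate, and the 6 coefficients per gene were tested with limma 3.58.1 in R 4.3.3 (eBayes with a trend, two-sided, Benjamini-Hochberg adjustment, threshold 0.05). The 10 score genes were left out of this fit, and stayed in that of tumor means. Conditions were compared with limma in the same way, with all 6 tumors in 1 fit. This was done on tumor means of high-scoring cells, without a covariate, and on the coefficients. The other steps and the figures used scipy 1.17.1, matplotlib 3.10.9, numpy 2.4.6, and pandas 2.3.3 under Python 3.11.15. The steps were tested on simulated data. Replicates are 2 tumors per condition from separate mice.

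Named genes were the score genes, the 15 largest higher and 10 largest lower called genes with 1 sign in all 6 tumors, 3 genes of each list by abundance over retained cells, and for conditions up to 5 called differences without overlap of groups or, with none called, the 3 smallest p. Further list members are named as examples. The rule for members, the gene lists, and the motifs were chosen with earlier results of these data known. The ribosomal list was drawn by symbol and holds near copies and Rps19bp1, which is no ribosomal protein. Of the gene IDs, 25103 of 25215 matched GENCODE on GRCm38. Alternatives were no or another form of the covariate, matched cells, other cuts and scores, pseudocounts of 0.1 and 10, other filters, limma without a trend, and leaving out each tumor, as well as 2 exclusions of cells chosen after seeing the data. Variant calls and subclones were not analysed here, and some genes that the rule or the lists cover are not reported here.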

Additional observations from a re-analysis of the deposited data

Results flagged for a closer look

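The difference of Mad2l1 between high-scoring and low-scoring cells was 1.43 in tumor R499_016 and between 3.12 and 3.80 in the other 5 tumors, and that of Ndrg1 was −3.17 in B16PD1_002 and between −1.25 and −0.44 in the other 5. Both stood apart from the other tumors by Dixon's criterion at 95%, which chance passes in about 1 of 20 groups tested. Both genes had been chosen among those with 1 sign in 6 of 6 tumors with genes detected allowed for.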

How the results depend on the processing

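High-scoring against low-scoring cells gave 287 higher and 63 lower genes. The counts were 1179 and 11 with no covariate for genes detected, 143 and 9 against the nearest low-scoring cell, 142 and 5 for the top 10% of cells, 88 and 10 with genes in at least 1 cell, and 59 and 3 without S-phase-high cells, an alternative chosen after seeing the data. Higher genes numbered 189 in limma without a trend, and lower genes numbered 27 with a pseudocount of 10 and 34 with a mitochondrial limit of 5%. Leaving out each tumor gave 178 (without B16PD1_002) to 264 higher and 17 (without B16_008) to 40 lower genes. The cause was not tested, other than that fewer cells or tumors entered some of these fits. Of the 350 called genes, all kept their direction in each setting that fitted them, except 1 without S-phase-high cells. With no covariate the median of all genes moved from −0.013 to 0.17, and 99.1% of calls were higher in place of 82%.

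Between conditions, genes in at least 10% of cells gave 6 calls for R499 minus B16 and 7 for R499 minus B16PD1, genes in at least 1 cell gave 8 for R499 minus B16PD1, and the difference of differences for R499 minus B16 gave 1 call without R499_016 (0 to 1 over tumors left out). The mitochondrial share differed by 0.179 percentage points over 2000 genes detected (exact permutation p = 0.5) and by −0.0457 with genes detected as a covariate (exact permutation p = 0.8125). It was 0.270 to 0.409 with a tumor left out (exact permutation p = 0.0625, the smallest that 5 tumors allow).

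Several uncalled differences changed sign. With no covariate, these were Rhoa 0.048, Cdk4 0.11, Calr 0.065, Ifi27 0.14, Ifitm3 0.50, Lgals3bp 0.30, and mt-Co3 0.18. With a squared covariate, this was Canx −0.0067. Against the nearest low-scoring cell, these were Rhoa 0.12, Pmel 0.023, Canx −0.12, Ldha −0.038, mt-Atp6 −0.023, and mt-Co2 −0.18. With the score after regression on genes detected, these were Cdk4 0.15, Ldha −0.031, Fos −0.075, Vwf 0.0032, mt-Co3 0.032, and mt-Co2 −0.090. For the top 10% of cells, these were Arpp19 −0.30, Cdk4 0.23, Ldha −0.076, Lum −0.058, Vwf 0.025, and mt-Co2 −0.076. With a score of 5 genes, these were Rhoa 0.020, Cdk4 0.14, Dct −0.022, Ldha −0.017, Lum −0.026, mt-Co3 0.063, and mt-Co2 −0.052. Against all remaining cells, these were Arpp19 −0.0077, Cdk4 0.024, and Ifitm3 0.055. With a pseudocount of 0.1, this was Arpp19 −0.017. With a pseudocount of 10, this was Cdk4 0.020. With the mitochondrial limit of 5%, these were Arpp19 −0.22, Ldha −0.029, and mt-Co3 0.015. In cells with over 2000 genes, these were Cdk4 0.18, Dct −0.0023, Ifitm3 0.0030, Fos −0.062, and mt-Co2 −0.0071. Without S-phase-high cells, these were Arpp19 −0.28, Anapc5 −0.16, Ifitm3 0.014, Ldha −0.045, Dcn −0.016, and mt-Co3 0.063. With each tumor left out in turn, the value ran from −0.14 to 0.22 for Arpp19, −0.20 to 0.099 for Calr, −0.027 to 0.084 for Canx, −0.16 to 0.12 for Cdk4, −0.017 to 0.11 for Dcn, −0.020 to 0.051 for Dct, −0.22 to 0.35 for Fos, −0.23 to 0.14 for Ifitm3, −0.026 to 0.082 for Ldha, −0.0082 to 0.068 for Lum, −0.079 to 0.0067 for Pmel, −0.24 to 0.025 for Rhoa, −0.042 to 0.11 for mt-Co2, and −0.10 to 0.014 for mt-Co3. None of these genes was called in the main comparison. Counting each named gene once per alternative, 114 calls were lost (103 of them of negative differences) and 18 were gained, all with the same direction. No paired analysis was possible because, for the contrasts between conditions, the columns carry tumor names and no replicate number of the labels, while high-scoring and low-scoring cells were compared within each tumor. TPM gives no depth, so a transcript not detected cannot be told from one not sampled.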

Other observations

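Genes outside the fixed lists were also called, and those named here were chosen after their values were seen. Ubb, a ubiquitin precursor, was detected in every cell of both classes and was lower in high-scoring cells of 6 of 6 tumors. It had tumor means of log2(TPM + 1) between 13.0 and 14.1 in high-scoring cells and between 14.1 and 15.3 in low-scoring cells, and differed by −0.78 ± 0.13 (SE, n = 6 tumors; limma, adjusted p = 0.00068). Without cells in the S phase top 25%, Ubb (−0.87 ± 0.10) was among the 3 lower calls. Repeats that ubiquitin genes share make its level uncertain.

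Over all 11254 genes tested, 287 (2.55%) were higher and 63 (0.56%) lower, which is the background for the counts by symbol given here. Of 19 genes tested with symbols that start with Nup, which encode parts of the nuclear pore, 4 were higher and none lower, with a median of 0.43. They were Nup85 (1.91 ± 0.33), Nup35 (1.23 ± 0.32, higher in 5 of 6 tumors), Nup205 (1.13 ± 0.29), and Nup107 (1.08 ± 0.26), and the pore membrane protein Ndc1 differed by 2.50 ± 0.36 (adjusted p = 0.00021). Of 13 genes that start with Lsm, which bind small nuclear or cytoplasmic RNA in splicing and decay, 5 were higher and none lower, with a median of 0.71. Lsm3 (2.12 ± 0.32) and Lsm5 (2.08 ± 0.32) were detected in 105 and 78 of 128 high-scoring cells and in 132 and 73 of 255 low-scoring cells. Knstrn, a spindle protein, differed by 2.90 ± 0.27 (adjusted p = 3.3e-06). Ccnb1-ps was called higher (0.45 ± 0.11, in 19 high-scoring and 3 low-scoring cells), but it shares sequence with the score gene Ccnb1 and is uncertain. Cav1, the caveolin of membrane invaginations, differed by −1.22 ± 0.30 (adjusted p = 0.03) and was detected in 41 high-scoring and 111 low-scoring cells.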
